A study of Mesocricetus auratus with 7 samples.

Results

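The 200 most abundant transcripts of the fully grown golden hamster (Mesocricetus auratus) oocyte are described here, by the share of reads they took and by how much they varied between animals of 3 Mov10l1 genotypes. The transcripts were chosen by level. Rows of the gene table were ranked on their mean CPM (the count scaled by the library total) over the 4 WT and HET libraries. Reading down 205 rows gave 200 transcripts of 22285 rows in all (0.897%). The 5 rows left out either had all KO libraries over 1.4-fold beyond all others or stood in strict order from WT through HET to KO in every library. Rows with both WT libraries over 2-fold beyond the other 5, and 4 rows listed by identifier for their differences, were also to be left out, and of these Zfhx3 alone ranked this high. Both the levels and the genotype differences were therefore used in choosing the 200 transcripts, and their values by genotype are a description.

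Germinal vesicle (GV) oocytes are arrested in prophase of the first meiotic division. RNA was taken from pools of 6 to 12 oocytes, punctured from antral follicles of 1 animal per library in a medium that blocks the resumption of meiosis. WT oocytes came from animals of 37 weeks (WT 1) and 17 weeks (WT 2), HET oocytes from animals of 40 weeks (HET 2) and 36 weeks (HET 3), and KO oocytes from animals of 45 weeks (KO 1), 40 weeks (KO 2) and 36 weeks (KO 3). HET animals carried 1 and KO animals 2 copies of an allele in which exon 20 of Mov10l1, part of the helicase domain, was deleted with CRISPR-Cas9. The allele went back to a single founder female and was crossed to outbred animals, and females without an intact copy were sterile whereas HET females were fertile. MOV10L1 is an RNA helicase required to make piRNAs, the small RNAs with which PIWI proteins silence retrotransposons.

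A fully grown oocyte no longer transcribes its genome to any great extent. It holds a store of maternal mRNAs, made during growth, from which proteins are translated through maturation and the first divisions of the embryo. Many of these mRNAs are kept dormant with short poly(A) tails until proteins that bind their 3′ ends, such as CPEB1, release them for translation. The oocyte is also very rich in mitochondria, whose own genome encodes subunits of the respiratory chain. For transcripts of the nuclear genome, levels measured at this stage therefore describe largely stored RNA. Read shares are relative to the library total, so they show neither the number of oocytes in a pool nor the RNA per oocyte.

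Library totals lay between 24242442 and 33956304 estimated counts, and between 9860 and 10585 rows had at least 10 counts. The lowest count of any of the 200 transcripts in any library was 12849, so all 200 passed the filters on low counts. Mov10l1 itself, which was not among the 200, had 94.0 to 185 normalised counts (library counts divided by size factors) in KO, against 388 to 965 in WT and HET. Relative to WT, KO changed by −2.29 on the log2 scale (SE 0.513, adjusted p 0.00262 by DESeq2). HET 3 and HET 2 stood apart from the other libraries, as described below, and the values of the ND6 group described below, on which they bear most, are also given without them. The oocyte markers with a known row (Ddx4, Dazl, Nobox and Kit, 4 of 17) summed to 882 to 1165 CPM. Of the granulosa and cumulus cell markers, 4 of 16 had a known row (Inha, Inhba, Kitl and Cyp11a1) and summed to 0.619 to 14.5 CPM. Inhba, which encodes an inhibin and activin subunit, was at most 0.0413 CPM in WT and reached 13.8 in HET 3 and 12.6 in KO 2. In HET 2 it was at 0.397 CPM. In KO against WT and in HET against WT, 3 markers of this list were tested, and Inhba alone was called by DESeq2. Among all genes tested, 0.508% and 0.443% were called. Known rows come from lists of genes that the study called in oocytes or testes, so these markers are not a sample of their list. Cyp11a1, Inha and Kitl did not share the order of Inhba. Cyp11a1, of steroid synthesis, was highest in WT 2 (3.48 CPM) and at most 1.26 in HET and 1.001 in KO, Inha was highest in WT 2 (1.46 CPM), and Kitl was at most 0.0825 CPM in any library. Col1a1 of stroma reached at most 0.132 CPM and Vwf of endothelium at most 0.166.

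Few rows carried much of the RNA. The 200 transcripts took 45.3% of the counts in WT 1 and 42.7% in WT 2, 48.5% in HET 2 and 41.6% in HET 3, and 47.9%, 47.9% and 47.3% in the 3 KO libraries. The lowest and the highest share were those of the 2 HET libraries, so the KO values lay between them, and above both WT values. The mean share was 47.7% ± 0.335 (SD, n = 3) for KO, 44.0% ± 1.86 (SD, n = 2) for WT and 45.1% ± 4.92 (SD, n = 2) for HET. KO exceeded the mean of the 4 other libraries by 3.20 percentage points, near the SD of those 4 libraries (3.10 points). The difference was 2.22 points without HET 3 and 4.54 points without HET 2. The 95% Wilson interval of a share was at most 0.0396 points wide, which covers counting error only and not the spread from amplification or between animals. The 10 transcripts with the highest level alone took 10.5% (HET 3) to 18.4% (HET 2).

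**Figure D1:**
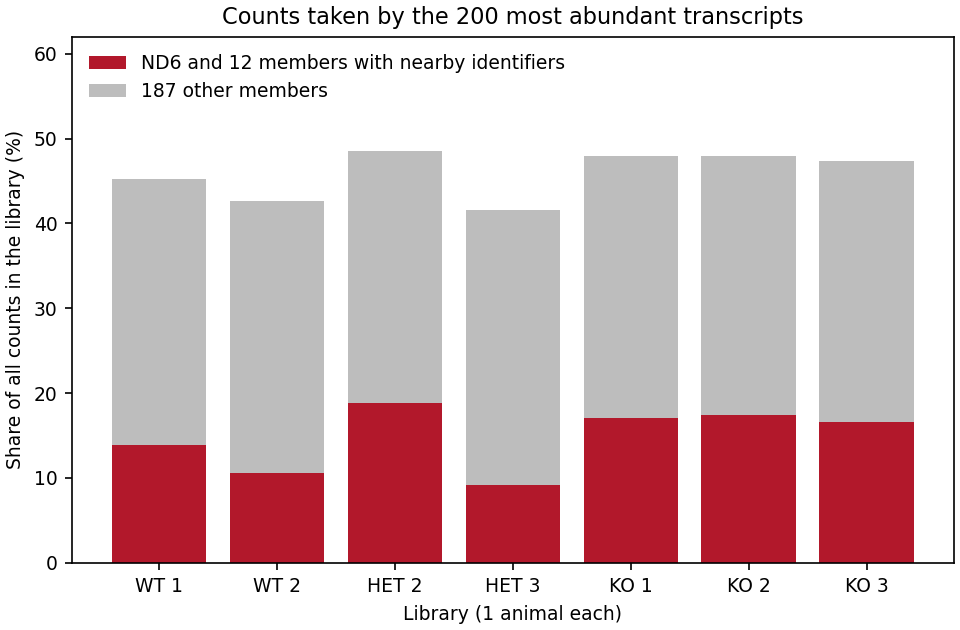
Share of all counts in each library, in percent from 0, taken by the 200 most abundant transcripts, with 1 bar per animal. The red part (ND6 and 12 transcripts with nearby identifiers) runs from 9.22% in HET 3 to 18.8% in HET 2, whereas the grey part (the other 187) stays between 29.7% and 32.4%.

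Of those 10 transcripts, 8 belonged to a group that stood out in the values and was chosen after they were seen. It holds ND6 (ENSMAUG00000000033), which encodes a subunit of respiratory complex I and lies on the mitochondrial genome, and the 12 abundant transcripts whose identifiers are numbered close to it. All 38 rows numbered below Nebl (ENSMAUG00000000039), the next row with a known symbol, were considered, and 13 were among the 200 transcripts. The other 25 summed to 0.0811 to 0.192% of the counts. No table used here pairs the 12 identifiers with symbols, so they are not named, and their genomic origin is not given.

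The ND6 group took 13.9% of counts in WT 1, 10.6% in WT 2, 18.8% in HET 2, 9.22% in HET 3 and 17.1%, 17.4% and 16.6% in KO. The difference between the 2 HET animals (9.62 percentage points) exceeded that between any 2 animals of the same genotype, with a highest over lowest share of 2.04 in HET, 1.30 in WT and 1.05 in KO. The most abundant transcript of the oocyte, ENSMAUG00000000004, had 1553880, 1650700 and 1579880 normalised counts in KO, against 1263110 and 898324 in WT and 1486480 and 863320 in HET. It was the 1 transcript of the group for which the 3 KO libraries lay above all WT and HET libraries. ND6 itself had 69710, 60188 and 58120 normalised counts in KO, against 41911 and 39174 in WT and 72998 and 23548 in HET. Its HET libraries were the highest and the lowest of the 7, and the KO libraries lay above both WT libraries.

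The same order recurred through the group. HET 2 was the highest library for 12 of the 13 transcripts, and HET 3 the lowest for 10, with WT 2 the lowest for the other 3. The fold between HET 2 and HET 3 was 1.72 to 3.61, and for the summed group 2.25. Pearson correlations with ND6 were taken on log2 normalised counts over the 7 libraries. They were 0.872 to 0.986 for the 12 transcripts, against a median of 0.042 for the other 187. These points share the same libraries and scaling. Over the 5 libraries without HET the correlations were 0.65 to 0.939, against a median of 0.114. Of the other 187 transcripts, 6 had a correlation above 0.872, led by ENSMAUG00000018212 (0.973). These 6 spanned 1.23-fold to 1.95-fold between their lowest and highest library, and the ND6 group 1.89-fold to 3.61-fold, so that the ranges met.

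**Figure D2:**
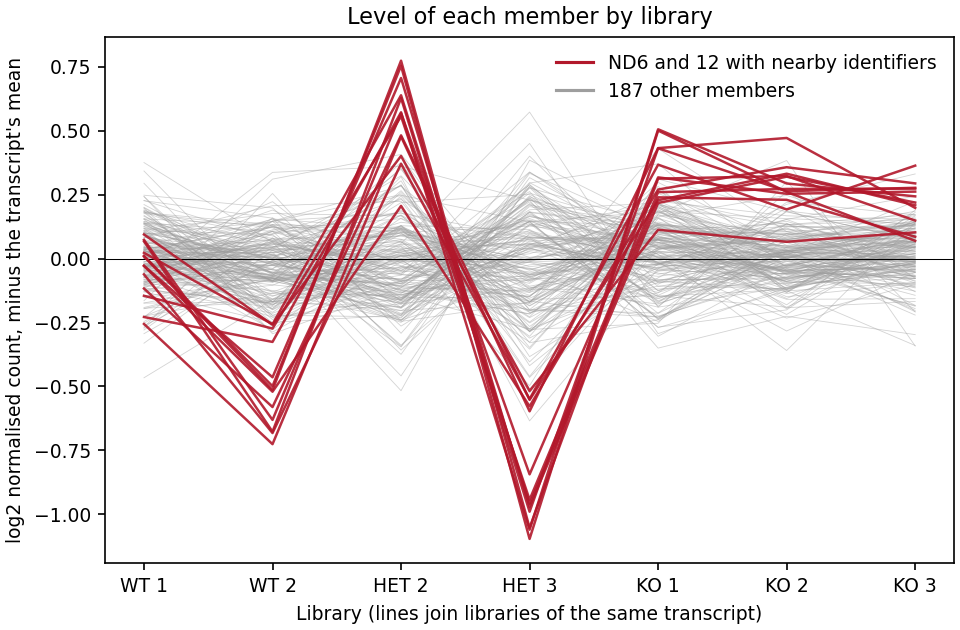
The log2 normalised count of each of the 200 transcripts in the 7 libraries, relative to the mean of that transcript. The 13 red lines (the ND6 group) peak in HET 2 for 12 of 13, fall in HET 3 and WT 2 and lie above 0 in KO, and the grey lines of the 187 other transcripts scatter around 0.

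Summed over the ND6 group, KO exceeded WT 1.46-fold and HET 1.23-fold by their means, and HET exceeded WT 1.19-fold. WT 1 exceeded WT 2 1.38-fold, so the fold of KO over WT depends on the WT library. WT 2 came from the youngest animal (17 weeks, against 36 to 45 weeks for the others), and the part of age was not tested. Both folds that involve HET turned direction with the library. KO over HET was 2.01 without HET 2 and 0.891 without HET 3, and HET over WT was 0.73 without HET 2 and 1.64 without HET 3. Median log2 fold changes over its 13 transcripts were 0.51 in KO against WT, 0.25 in KO against HET and 0.29 in HET against WT. Without HET 2 these medians were 0.51, 1.14 and −0.73, and without HET 3 they were 0.51, −0.29 and 0.81. The median of KO against WT compares libraries other than HET, so its staying at 0.51 is no measure of its stability. None of the 13 was called in any of these comparisons, where 0.508%, 0.234% and 0.443% of all genes tested were called, so that 0 of 13 is near what the share over all genes gives. The calls changed when a HET library was left out. With either of them dropped, ND6, ENSMAUG00000000002 and ENSMAUG00000000032 were called as raised in KO against WT. To this comparison of other libraries HET contributes through the scaling, the common estimate of spread and the genes tested. For ND6 the log2 fold change was 0.63 with all 7 libraries, without HET 2 and without HET 3. The shares of all genes called in these fits, and the calls in KO against HET, are given at the end of the text. Between HET and WT, the direction for ND6 turned with the library, with a log2 fold change of −0.78 without HET 2 (DESeq2 adjusted p 0.00452) and 0.85 without HET 3 (DESeq2 adjusted p 0.00342). A single library then stood for the HET group, assumed to vary like the other groups.

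The other 187 transcripts took a nearly constant share. It was 31.4% in WT 1 and 32.0% in WT 2, 29.7% in HET 2 and 32.4% in HET 3, and 30.8%, 30.5% and 30.8% for KO. When the ND6 group was left out of the library totals, an alternative added after seeing the data, the shares were 37.2%, 36.9% and 36.9% for KO, 36.5% and 35.8% for WT, and 36.6% and 35.6% for HET. The difference between KO and the other 4 libraries was then 0.851 percentage points, against 3.20 for all 200 transcripts and 3.89 for the ND6 group alone. Without HET 2 it was 1.001 and for the ND6 group 5.79, and without HET 3 it was 0.687 and for the ND6 group 2.58. On this scale the 3 KO libraries lay above the 4 others. The range over all 7 libraries was 35.6% to 37.2%.

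Single transcripts of the 187 varied little between animals. The median SD of log2 normalised counts over the 7 libraries was 0.142, compared with 0.520 in the ND6 group. With the same exclusions applied, it was 0.168 for ranks 206 to 500, 0.194 for ranks 501 to 1000, 0.258 for ranks 1001 to 2000, 0.389 for ranks 2001 to 4000 and 0.758 for ranks 4001 to 8000. Spread thus fell with level, and the ND6 group lay off this trend, with the spread of rows that had far fewer counts. In 158 of the 187 (84.5%) the highest library was less than 1.5 times the lowest, and in 186 less than 2 times. The exception was ENSMAUG00000007887 with 2.05-fold, from 14921 normalised counts in WT 1 to 30660 in HET 3. Within genotype, the median SD was 0.133 for the 187 transcripts and 0.558 for the ND6 group. Without either HET library the SD within genotype was 0.204 for the ND6 group and 0.102 for the 187 transcripts, and over the 5 remaining libraries, genotypes included, it was 0.364 and 0.122.

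**Figure D3:**
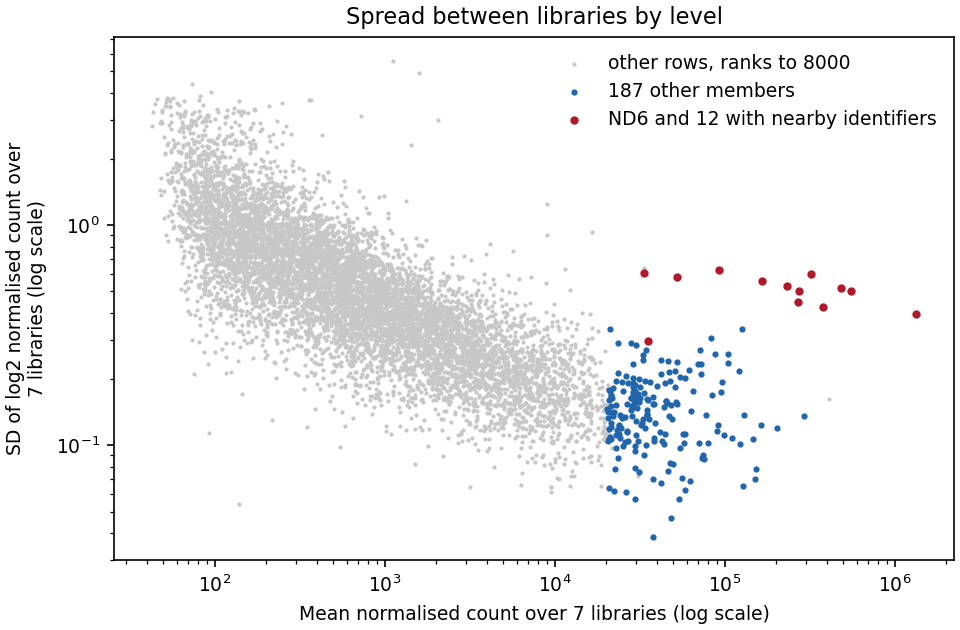
SD of the log2 normalised count over the 7 libraries against the mean normalised count, both on log axes, for ranks up to 8000. Blue points (187 abundant transcripts) continue the fall of spread with level, whereas red points (ND6 group, median SD 0.520) lie above it. The grey point at the level of the red ones, but below them in spread, is Spry4, at rank 3 and left out by its order of genotypes.

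The same 187 transcripts showed which libraries resembled each other. Over 21 pairs of libraries, the SD of the log2 ratio was smallest between KO libraries (0.143 to 0.177) and 0.191 between the WT libraries. It was largest between HET 2 and HET 3 (0.346), where 19 of 187 transcripts differed by more than 1.5-fold. Pairs of different genotypes had 0.182 to 0.289 (at most 0.250 without HET 3), and pairs between WT and KO 0.182 to 0.218. The 2 HET animals thus differed from each other more than any pair of animals of different genotype. The first principal component of these transcripts held 42.1% of the variance and set HET 3 (0.80) against HET 2 (−0.55), with the other libraries between −0.23 and 0.06. The second component (20.9%) had the 3 KO libraries below 0 and the other 4 above it. The granulosa cell markers differed in both directions between these libraries. Inhba was at 13.8 CPM in HET 3 and 0.397 in HET 2, Cyp11a1 at 0.0179 and 1.26, Inha at 0 and 0.0662 and Kitl at 0 and 0.0414. The animals were 36 and 40 weeks old. The part of these in the distance between the HET libraries was not tested.

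**Figure D4:**
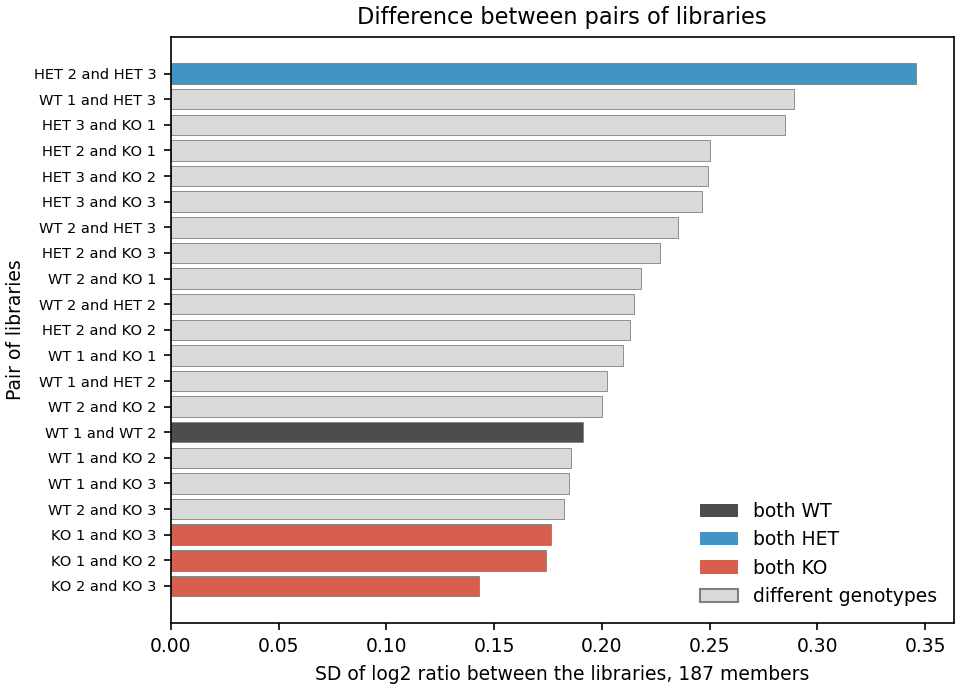
SD of the log2 ratio between 2 libraries over the 187 transcripts outside the ND6 group, for each of 21 pairs, from 0. The 3 pairs of KO libraries (red) have the smallest values, 0.143 to 0.177, and the pair of HET libraries (blue) the largest, 0.346.

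Symbols or descriptions were known for 9 of the 200 transcripts, from the gene lists that the study published. Those lists hold genes that the study called in oocytes or testes, so the 9 are not a sample of the 200. None of them passed the threshold in any comparison of all 7 libraries, where 0.234 to 0.508% of all genes did, and ND6 passed when either HET library was left out, as given above. Tasor2 (ENSMAUG00000015295), a relative of the TASOR subunit of the HUSH silencing complex, was the most stable of all 200. Its normalised counts were 37141, 37177 and 38654 in KO, against 37330 and 37800 in WT and 39164 and 39641 in HET, a range of 1.07-fold. WT and KO overlapped, with both HET libraries above them, and KO differed from WT by a log2 fold change of 0.00355 (SE 0.134).

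Cpeb1 (ENSMAUG00000017763) encodes the protein that binds the cytoplasmic polyadenylation element of stored mRNAs and controls their translation. It had 33011, 33451 and 33671 normalised counts in KO, against 31082 and 36954 in WT and 30316 and 38003 in HET. HET 3 was highest and HET 2 lowest, with the KO libraries within the range of the others, and KO differed from WT by a log2 fold change of −0.027 (SE 0.173). Sall4 (ENSMAUG00000015814), a zinc finger transcription factor of germ cells and pluripotent cells, had 30467, 25572 and 32302 in KO, against 24158 and 28788 in WT and 31981 and 30699 in HET. Both HET values lay above both WT values, and the KO values overlapped each of them (KO minus WT, log2 fold change 0.15, SE 0.177).

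Glrx (ENSMAUG00000011312), the gene of the thiol reductase glutaredoxin, had 76413, 69299 and 65307 normalised counts in KO, against 71854 and 68622 in WT and 83540 and 49797 in HET. HET 2 was highest and HET 3 lowest (correlation with ND6 0.865 over the 7 libraries). Csf1r (ENSMAUG00000009005), the receptor of macrophage colony stimulating factor, had 52058, 51575 and 50414 in KO, against 45960 and 41135 in WT and 43254 and 54625 in HET. All KO values lay above both WT values and below HET 3. KO minus WT gave a log2 fold change of 0.24 (SE 0.167, adjusted p 0.754 by DESeq2). Rffl (ENSMAUG00000003967), a ubiquitin ligase with a RING finger, had 34452, 35930 and 37292 in KO, against 32195 and 30035 in WT and 34089 and 40908 in HET. Both HET and all KO libraries lay above the WT libraries, and HET against WT was not called (log2 fold change 0.27, SE 0.173, DESeq2 adjusted p 0.69).

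Nop56 (ENSMAUG00000021793), a core protein of box C/D small nucleolar ribonucleoproteins, was one of the more variable transcripts outside the ND6 group. It had 24855, 36487 and 25631 normalised counts in KO, against 37553 and 26324 in WT and 35602 and 24441 in HET. Each genotype thus held values of both kinds, high in WT 1, HET 2 and KO 2 and low in the other 4 libraries. The transcript described as ankyrin repeat and KH domain-containing protein 1 (ENSMAUG00000000909) had 26676, 27110 and 28161 in KO, against 27941 and 32082 in WT and 35244 and 26652 in HET, again with HET 2 highest and HET 3 lowest. Among the 187 transcripts outside the ND6 group, 18 had this order of extremes and 18 the opposite one, against 9 and 0 of the 13 in the group.

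**Figure D5:**
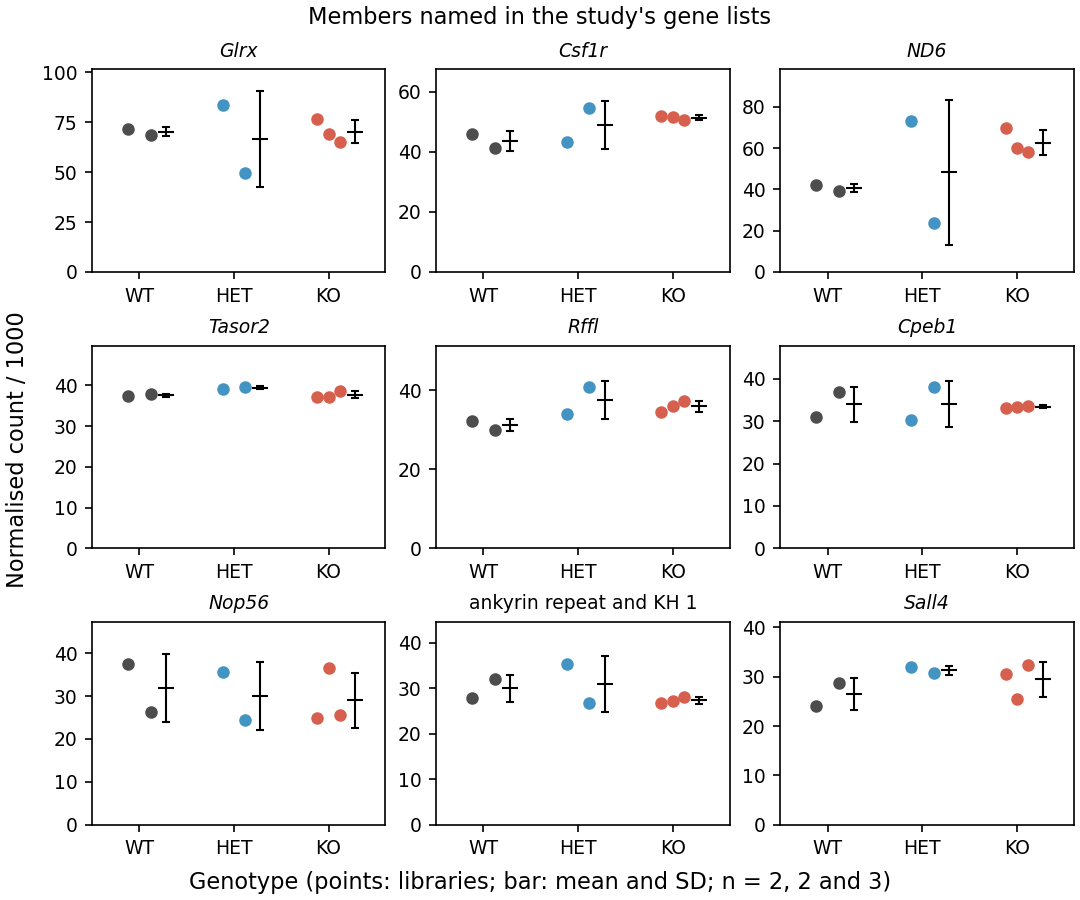
Normalised counts, on axes that start at 0 and are divided by 1000, of the 9 abundant transcripts with a known name, with 1 point per library and the mean ± SD of each genotype beside them (n = 2 WT, 2 HET and 3 KO). ND6, Glrx, Cpeb1 and the ankyrin repeat transcript have their highest and lowest values in the 2 HET libraries, whereas Tasor2 spans 1.07-fold over all 7.

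Pathway lists could be placed only where a symbol had a known row. Of 24 genes of mRNA storage and translation control, 5 had one, and Cpeb1, at rank 102, was the only one of them among the 200. Ddx4, an RNA helicase of germ granules, ranked 262, Caprin2 945, Dazl, an activator of translation in germ cells, 976 and the mRNA-packaging Ybx2 1311. None of these 5 was called in any comparison, where 0.234 to 0.508% of all genes tested were, so that 0 of 5 is near that share. Of 22 genes of the piRNA pathway, 15 had a known row and none was among the 200. The highest besides Ddx4 were Pnldc1, which trims the 3′ ends of piRNAs, at rank 424 with 420 CPM and the scaffold protein gene Tdrd1 at rank 432 with 415 CPM (means of WT and HET). Piwil3 and Piwil1, which encode PIWI proteins, ranked 1781 and 1868. Of these 15, Mov10l1, the gene that carries the deletion, alone was called. It was lowered in KO against WT and against WT and HET together, and was not called in KO against HET. Of all genes tested, 0.508%, 0.346% and 0.234% were called in these comparisons. At such shares few calls would be found among 15 genes, so nothing is read from the absence of others. The chaperone genes Hspa8 and Hspa5 ranked 1040 and 1152. For zona pellucida, subcortical maternal complex and meiotic cell cycle genes no row was known, so whether they are among the 200 was not analysed here.

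No transcript of the 200 was called between genotypes at a DESeq2 adjusted p under 0.01. Since rows with separated genotypes had been left out of the list, nothing is read from this count. Among all genes tested, 0.508% were called in KO against WT, 0.234% in KO against HET, 0.443% in HET against WT and 0.346% in KO against WT and HET together. All 205 rows read to fill the list held 1 called row. It was Zfhx3, which was raised in each comparison of KO. By edgeR none of the 200 was called either, and 0.00891% of all genes were called in KO against WT, 0.0178% in KO against HET, 0.00891% in HET against WT and 0.038% in KO against WT and HET together.

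At an unadjusted p under 0.05, 10 of the 200 passed by DESeq2 (11 by edgeR) in KO against WT, where 8.95% of all genes did. They were 9 (14 by edgeR) in KO against HET, with 6.93% of all genes, and 2 (2 by edgeR) in HET against WT, with 9.86%. In KO against WT and HET together they were 13 (15 by edgeR), with 8.96%. The 3 KO libraries lay beyond all WT and HET libraries in 16 of the 200 transcripts (13 above and 3 below), compared with 6.43% of all genes tested. Rows with separated genotypes were left out of the 200 but not of all genes, so nothing is read from these counts.

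The median log2 fold change in KO against WT was 0.017 over the 200 transcripts and 0.024 over all genes tested. The log2 fold change lay within 1.25-fold for 185 of the 200, which were 183 of the 187 outside the ND6 group and 2 of the 13 within it, and for 39.0% of all genes tested. Rows in which KO stood apart by over 1.4-fold had been left out of the list, and nothing is read from the difference. For the other comparisons the numbers within 1.25-fold were 186 (KO against HET), 193 (HET against WT) and 189 (KO against WT and HET together). The median SE of these KO to WT fold changes was 0.170 on the log2 scale, so that a change of 1.25-fold in a single transcript would be under 2 SE.

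The lowest fold change in KO against WT was that of ENSMAUG00000002443, at rank 26. Its normalised counts were 63560, 69288 and 65928 in KO, against 78053 and 102336 in WT and 104068 and 94910 in HET. The KO values were the 3 lowest, by less than the 1.4-fold that would have left it out. By DESeq2 the log2 fold change was −0.44 relative to WT (SE 0.174, adjusted p 0.281) and −0.52 relative to WT and HET together (SE 0.136, adjusted p 0.027), above the threshold of 0.01. It was called in the latter comparison when WT 1 was left out (log2 fold change −0.60, DESeq2 adjusted p 0.000358). The highest fold change outside the ND6 group was that of ENSMAUG00000011381, with 97303, 77714 and 79134 in KO, against 66228 and 64339 in WT and 62768 and 64089 in HET. The KO libraries lay above all others, led by KO 1, and relative to WT the log2 fold change was 0.38 (SE 0.165, adjusted p 0.403 by DESeq2). In the ND6 group, the highest was ENSMAUG00000000002, with 617655, 634893 and 525249 in KO, against 383532 and 276881 in WT and 637221 and 302665 in HET. HET 2 exceeded all KO libraries (KO minus WT, log2 fold change 0.84, SE 0.291, adjusted p 0.169 by DESeq2). The outcome for this transcript changed with the fit. It was called in KO against WT with a replicate block, and when either HET library was left out.

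At the lower limit of the list, the last 3 transcripts inside it (ranks 203 to 205) had a mean of 744, 742 and 741 CPM over WT and HET, and the first 3 rows outside (ranks 206 to 208) had 738, 738 and 737 CPM. The limit thus cuts through a continuous range. Each library's own 200 highest rows held 185 to 189 of the 200 transcripts, and none of them fell below rank 311 in any library. Besides Zfhx3, the rows left out were Spry4 (rank 3), an inhibitor of receptor tyrosine kinase signalling with 12539 to 16924 CPM, Arhgef3 (rank 177) and 2 unnamed rows. The 5 rows took 1.67 to 2.07% of the counts.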

How the data were processed

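RNA-seq of GV oocytes from 2 WT, 2 HET and 3 KO hamsters was analysed. The authors amplified cDNA (Ovation RNA-Seq V2) without molecular identifiers, aligned single-end reads with STAR (version 2.7.3a) to MesAur1.0 and counted them over Ensembl (release 99) exons with featureCounts (version 2.0.0), without strand. Reads with up to 20 alignments or several genes were divided, so the deposited values are estimated counts (10.2 to 11.8% not whole), and paralogues, overlapping and antisense genes are uncertain. Of the 200 transcripts, 15 had whole values in every library (no fraction at the 2 decimals deposited). Totals were 24242442 to 33956304. Gene length was not used, so ranks by count favour long transcripts. The study left out 2 further oocyte libraries as outliers.

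Counts were rounded and fitted in DESeq2 (version 1.42.0, R version 4.3.3; two-sided Wald test, median-of-ratios scaling, all 7 libraries, called at Benjamini-Hochberg adjusted p under 0.01 over all genes tested). An alternative was edgeR (version 4.0.16) with its quasi-likelihood test. Spread was the SD of log2(normalised count + 0.5). On simulated data for KO against WT (10585 genes, 200 changed), DESeq2 found 137 with 16 false calls and edgeR 109 with 0. The count table does not pair identifiers with symbols. Names came from gene lists published with the study (1179 identifiers), from which no values were taken. The transcripts and lists were chosen with earlier results of these data known. The naming rule covered the 10 most abundant, the 5 most and 5 least variable, the 3 highest and 3 lowest fold changes, those at the limit and list genes. Since most lack a symbol, few are printed. The ND6 group, Nop56, Glrx and other named transcripts outside the rule were added after their values were seen.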

Additional observations from a re-analysis of the deposited data

How the results depend on the processing

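In the main fit of all 7 libraries, counts of called transcripts were 0 in all comparisons. A fit with a replicate block differed and is given below. The count did not change by edgeR, with TMM scaling or when a gene had to reach 10 counts in 3 or more libraries. At an adjusted p under 0.05 it was 1 for KO against WT and HET together (ENSMAUG00000002443, DESeq2 adjusted p 0.027), with 0.875% of all genes, and 0 otherwise. Leaving out 1 library gave 0 to 3 calls in KO against WT (3 of 200 without HET 2, with 0.78% of all genes tested, and 3 without HET 3, with 0.765%), 0 to 13 in KO against HET (13, or 6.50%, without HET 2, with 1.41% of all genes, of which 11 were in the ND6 group), 0 to 4 in HET against WT (3 lowered without HET 2, with 0.931% of all genes, and 4 raised without HET 3, with 0.386%, so that the direction turned for ND6 and ENSMAUG00000000032) and 0 to 2 in KO against WT and HET together (2 without HET 2, with 0.405% of all genes, and 1 without WT 1, with 0.272%). Fewer libraries then carry the estimate of the spread, which also holds when a KO library was left out, where 0 were called in every comparison. With either HET library left out, the median SD within genotype of the ND6 group was 0.204, against 0.558 with all 7. The cause of the calls was not tested. The median log2 fold change in KO against WT was 0.0039 (without WT 2) to 0.067 (without WT 1), the share difference 2.22 to 4.54 percentage points and the median SD within genotype 0.105 to 0.148. Other rankings kept 193 to 200 of the 200 transcripts, with 194 to 197 when a WT or HET library was left out. A ranking by counts per kilobase was not run, since no lengths were used. Since rows with separated genotypes had been left out of the 200, nothing is read from these shares. The alternatives that set the ND6 group aside, and its values without HET libraries, were added after seeing the data.

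The same replicate numbers occur in several genotypes, for different animals, and deviations of the 5 same-numbered pairs correlated by −0.025 to 0.081 across 7388 genes, so the numbers were not taken to pair the samples. With a replicate block in the fit, 1 transcript was called in KO against WT (ENSMAUG00000000002, log2 fold change 1.06, DESeq2 adjusted p 0.00192), with 0.603% of all genes, and 0 in the other comparisons, and the median log2 fold change was 0.018. The lowest count of any of the 200 transcripts was 12849.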
